A study of Homo sapiens with 36 samples.

Results

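The AP-1 transcription factor genes were followed across the 18 groups of an siRNA experiment in human breast cell lines. The 9 genes JUN, JUNB, JUND, FOS, FOSB, FOSL1, FOSL2, ATF3 and BATF3 were taken by name from the 60725 Ensembl genes of the deposited tables. The list was fixed with earlier results of these data known, so shares of members called describe this list only. AP-1 is a dimer of basic leucine zipper (bZIP) proteins. JUN proteins can pair with one another or with a FOS, ATF or BATF partner, FOS proteins need a JUN partner to bind DNA, and the make-up of the dimer sets which sites it prefers and how strongly it activates. Several of these genes are immediate-early genes whose mRNA rises quickly after growth factor or stress signals, and FOSL1, FOSL2 and BATF3 are better known for slower or sustained changes in epithelial, tumor and immune cells.

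RNA was sequenced from 36 libraries, 2 for each of the 18 groups. The ER-Src cells are MCF-10A, an established breast epithelial line that is not transformed, with the v-Src oncoprotein joined to the ligand-binding domain of the estrogen receptor, so all 10 ER-Src groups carry the fusion. These cells received control siRNA (Ctrli) or pools of siRNAs against YAP (YAPi), TAZ, the product of WWTR1 (TAZi), STAT3 (STAT3i) or JUNB (JUNBi). They were then treated with tamoxifen (TAM), which switches v-Src on and which the labels pair with the inhibitor AZD0530, or with its vehicle, ethanol (ETH). The breast cancer line MDA-MB-231, which is established and triple-negative, was used without TAM or ETH. Its titles name 2 sets, MDAMB-RNA1 (Ctrli, YAPi, TAZi, YAPi_TAZi for both, and TEADi against the TEAD factors) and MDAMB-RNA2 (Ctrli, JUNBi and STAT3i). The labels do not say that libraries of a group came from separate cultures, so p-values measure the spread between these libraries, which may be technical.

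Total expected counts were 6419720 to 19161700 in ER-Src, 7290499 to 18076158 in MDAMB-RNA2, 13456784 to 13534560 in the MDAMB-RNA1 controls and 1411304 to 2784605 in the MDAMB-RNA1 knockdowns. The protein-coding share of deposited TPM (a level per transcript length, scaled to a fixed total) was 20.2% to 28.9% in ER-Src and 20.0% to 37.9% in the MDAMB-RNA1 knockdowns. It was 94.0% to 94.5% in the other MDA-MB-231 libraries. Levels are therefore given as TPM rescaled to the usual TPM total over protein-coding genes. The MDAMB-RNA1 knockdowns were compared only with one another, because their controls differ from them in depth and RNA make-up and these cannot be told apart from the knockdown. All 7 basal epithelial markers were above 1 TPM in every ER-Src library, against 2 of 7 in MDA-MB-231. Their summed level was 7240 to 17600 TPM in ER-Src, 38.2 to 194 TPM in MDAMB-RNA1 and 13.0 to 24.0 TPM in MDAMB-RNA2. Of 6 mesenchymal markers, 6 passed 1 TPM in all ER-Src libraries, 4 in MDAMB-RNA1 and 3 in MDAMB-RNA2, with summed levels of 1030 to 1920, 2200 to 3500 and 1090 to 2030 TPM. Of 5 leukocyte markers only CD68 passed (summed 7.61 to 82.5, 92.5 to 256 and 43.3 to 107 TPM), and 0 of 3 endothelial markers did (up to 3.05 TPM in all).

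The targeted genes were read first. In ER-Src under TAM the log2 fold change was -2.49 for YAP1, -2.22 for WWTR1, -2.66 for STAT3 and -2.03 for JUNB, and in ETH it was -2.38, -1.86 and -1.88 for the first 3 genes. A gene is called here when its DESeq2 p, adjusted by Benjamini-Hochberg over all genes tested, is under 0.01. JUNB itself was a weak case in ETH. JUNBi libraries held 14.3 and 36.5 TPM against 43.0 and 54.4 TPM in Ctrli, so both were lower but the second much less so (log2 fold change -1.16, SE 0.39, DESeq2 adjusted p 0.064, edgeR adjusted p 0.00027). Without the second JUNBi library the change was -2.03 (adjusted p 1.6e-10). Among the MDAMB-RNA1 knockdowns, TEADi was lower than YAPi in TEAD1 (log2 -1.23, SE 0.16, DESeq2 adjusted p 1.6e-12) and TEAD2 (-3.73, SE 0.91, adjusted p 0.00089), and TEAD4 was at -4.96 (SE 1.56, unadjusted p 0.0015). TEAD3 was not called lower in TEADi (-0.06 against YAPi, -0.32 against TAZi and -0.38 against YAPi_TAZi).

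The members lie apart in the genome except on 2 chromosomes. In GRCh38, JUN is at chr1:58776845-58784048 (minus strand), JUNB at chr19:12791486-12793315 (plus), JUND at chr19:18279694-18281622 (minus), FOS at chr14:75278826-75282230 (plus) and FOSB at chr19:45467995-45475179 (plus). FOSL1 is at chr11:65892049-65900573 (minus), FOSL2 at chr2:28392448-28417317 (plus), ATF3 at chr1:212565334-212620777 (plus) and BATF3 at chr1:212686417-212699840 (minus). JUNB lies wholly inside the span of HOOK2 on the opposite strand, and FOSB lies inside the span of ERCC1. Whether the counting used strand is not given in the sources used here, so reads of these pairs may not be told apart. HOOK2 held 203 and 123 counts in TAM Ctrli and 169 and 190 in ETH Ctrli, where JUNB rose.

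The 250 bases before the RefSeq start of FOS, JUNB and JUN (GRCh38.p14) are shown because FOS and JUNB rose together with TAM and fell together with STAT3i in TAM, where JUN was not called. They run 5′ to 3′ on the strand of the gene, and capitals mark matches, on either strand, to the 5 motifs spelled out after them. The windows are chr14:75278578-75278827 (plus strand) for FOS, chr19:12791236-12791485 (plus strand) for JUNB and chr1:58784048-58784297 (minus strand) for JUN.
FOS: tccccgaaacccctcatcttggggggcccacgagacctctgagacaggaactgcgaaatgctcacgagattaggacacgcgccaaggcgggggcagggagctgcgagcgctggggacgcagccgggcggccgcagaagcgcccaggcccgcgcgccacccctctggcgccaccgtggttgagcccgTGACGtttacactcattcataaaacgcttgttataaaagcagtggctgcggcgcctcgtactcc
JUNB: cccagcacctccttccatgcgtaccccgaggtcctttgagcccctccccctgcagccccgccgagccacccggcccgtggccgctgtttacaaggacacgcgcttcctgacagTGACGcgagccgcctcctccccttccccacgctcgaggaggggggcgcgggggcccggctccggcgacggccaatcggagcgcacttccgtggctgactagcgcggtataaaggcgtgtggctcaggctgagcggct
JUN: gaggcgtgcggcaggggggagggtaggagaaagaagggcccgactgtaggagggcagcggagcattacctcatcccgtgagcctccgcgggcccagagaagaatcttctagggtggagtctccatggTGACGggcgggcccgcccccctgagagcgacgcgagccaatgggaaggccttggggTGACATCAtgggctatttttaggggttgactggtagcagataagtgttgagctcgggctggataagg
TGANTCA (the AP-1 core) was in 6.6% of the 27305 promoter windows of this length, TGACNTCA (a CRE-like core) in 7.09%, TGACG (the first bases of a CRE, which overlap TGACNTCA where N is G) in 21.7%, TTCNNNGAA (the STAT core) in 6.78% and GGAATG (the TEAD core) in 11.9%. Counted back from the start, TGACG began at position -64 in FOS, -137 in JUNB and -123 in JUN, and TGACNTCA at -67 in JUN. Of the 9 members, 7 had a window in the table, and the letters of the AP-1, STAT and TEAD cores were in none of those windows. A match describes letters only.

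TAM raised JUNB, FOS, FOSL2, ATF3 and BATF3 in cells with control siRNA, with a smaller and less stable rise of JUN. Of the 8 members with an adjusted p, 6 were called and all 6 were higher (median log2 fold change 2.03), where 6.21% of all genes tested were called and the median over all was -0.01. BATF3, which pairs with JUN proteins and has no activation domain of its own, moved most. It stood at 3.28 and 2.18 TPM in ETH (14 and 10 counts) and at 56.8 and 47.2 TPM in TAM (237 and 127 counts). This was a 21.8-fold rise (log2 4.44, SE 0.43, DESeq2 adjusted p 6.8e-23), imprecise in size because the ETH counts were few. Both TAM libraries were above every other ER-Src library. As in any bulk sample, fewer cells that express a gene and less of its RNA per cell cannot be told apart.

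FOS, the founding member with a strong activation domain, was at 27.6 and 33.3 TPM in ETH and 139 and 147 TPM in TAM (5.87-fold, log2 2.55, SE 0.16, DESeq2 adjusted p 2.1e-55). ATF3, a stress-induced partner that can repress or activate, rose from 3.28 and 2.18 TPM (21 and 18 counts) to 18.9 and 18.1 TPM (9.02-fold, log2 3.17, SE 0.43, adjusted p 6.6e-12). In both genes the TAM and ETH libraries did not overlap. FOSL2, a FOS-related protein without the FOS activation domain, went from 32.0 and 37.4 TPM to 86.6 and 57.7 TPM (log2 1.55, SE 0.13, adjusted p 9.8e-29). Its log2 ran from 1.18 to 1.67 over the alternatives. The mean transcript length that RSEM gave it was 3277 to 3894 bases in ETH Ctrli and 4485 to 5473 bases in TAM Ctrli.

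Within the JUN arm the response was uneven. JUNB rose from 43.0 and 54.4 TPM to 230 and 311 TPM (5.7-fold, log2 2.51, SE 0.17, DESeq2 adjusted p 1.4e-45). JUN, the strongest activator of the JUN proteins, was at 10.5 and 13.0 TPM in ETH and 17.2 and 23.8 TPM in TAM (log2 0.83, SE 0.24, adjusted p 0.009). The JUN groups did not overlap, but the call ended under 7 alternatives, among them any of the 4 libraries left out (adjusted p 0.033 to 0.62). Where a library was left out, the lone library of its group was assumed to vary like the other group. JUND, the JUN gene that is usually present in resting cells, did not pass (21.9 and 30.1 TPM in ETH, 27.7 and 44.7 TPM in TAM, log2 0.37, adjusted p 0.65). FOSL1 was at 12.1 and 13.7 TPM in ETH and 19.4 and 21.2 TPM in TAM (log2 0.81, DESeq2 adjusted p 0.092, edgeR adjusted p 0.00049). FOSB was too low to follow, at no more than 0.742 TPM in any ER-Src library. The calls for JUNB, FOS, FOSL2, ATF3 and BATF3 were kept under all 10 alternatives.

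**Figure D1:**
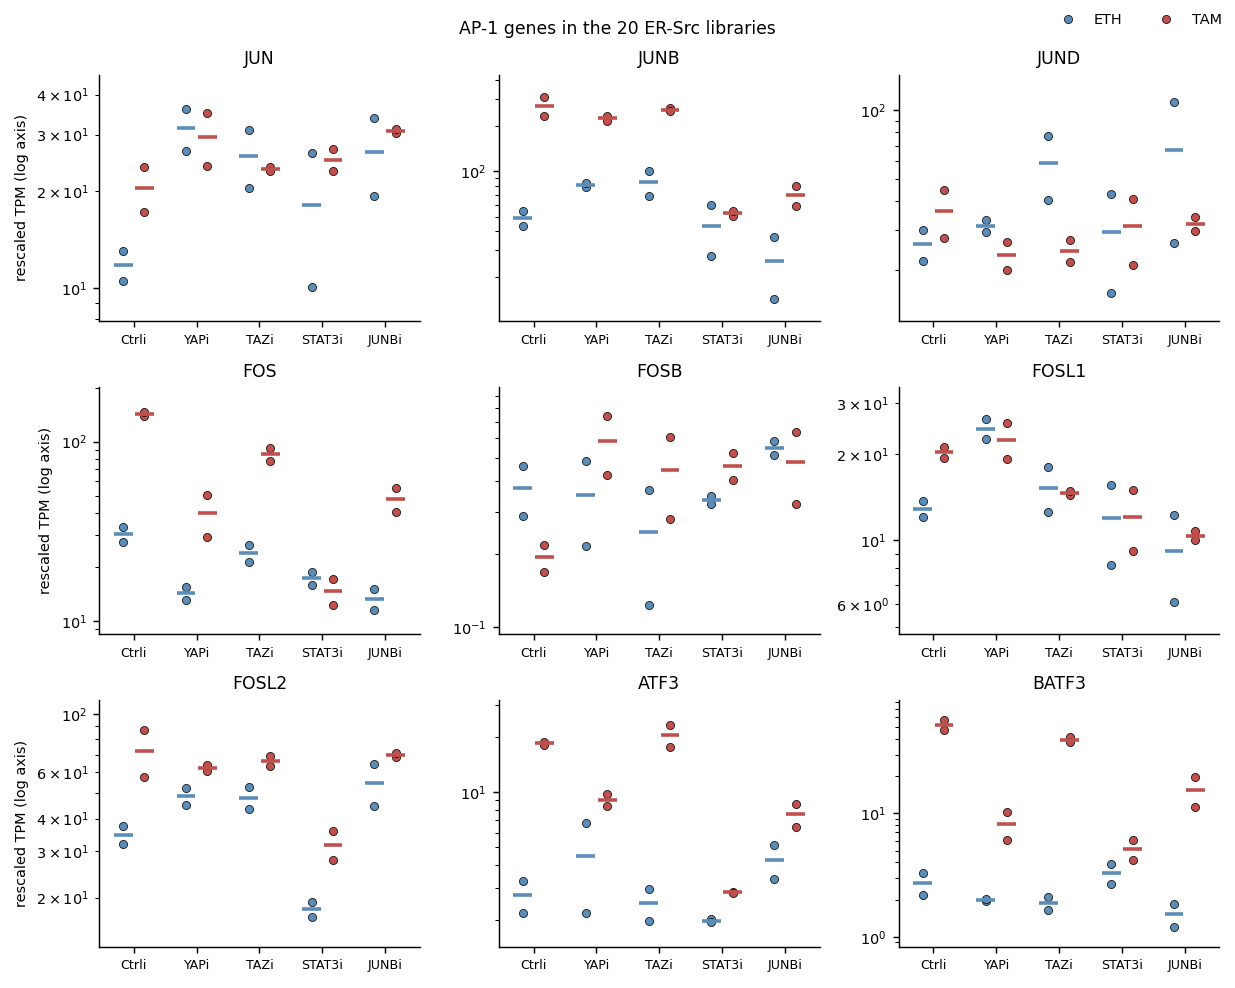
Level of each of the 9 AP-1 genes in the 20 ER-Src libraries, in rescaled TPM on a log axis, with 1 panel per gene. Dots are libraries (ETH blue, TAM red) and bars are group means. BATF3 in TAM Ctrli (56.8 and 47.2 TPM) and FOS in TAM Ctrli (139 and 147 TPM) lie above all other ER-Src libraries.

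The make-up of the family moved with these changes. The 9 genes summed to 170 ± 23.2 TPM (SD, n = 2) in ETH Ctrli and 634 ± 53.4 TPM in TAM Ctrli. JUNB supplied 28.5% of that sum in ETH and 42.5% in TAM, FOS 17.9% and 22.6%, and BATF3 1.65% and 8.28%. JUND fell from 15.2% to 5.65% of the sum without a call for its own level. In TAM STAT3i the sum was 176 ± 27.4 TPM, and it was 418 ± 12.5 TPM in YAPi, 283 ± 28.4 TPM in JUNBi and 530 ± 24.7 TPM in TAZi.

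The response to TAM was then measured within each knockdown. In TAZi cells 6 of 8 members were called, 5 higher and 1 lower (7.13% of all genes tested). In YAPi cells 3 of 9 were called, all higher (4.5% of all), and in JUNBi cells 3 of 9, all higher (2.13% of all). In STAT3i cells 0 of 8 were called by DESeq2 (0.793% of all), with 1 at an unadjusted p under 0.05 and 1 called by edgeR, FOSL2 in both (log2 0.83, SE 0.22, DESeq2 adjusted p 0.015, edgeR 0.0018). DESeq2 also called FOSL2 there with the replicate block (0.0008), in one fit over all ER-Src groups (0.00029) and without the second ETH library. JUN was at 10.1 and 26.2 TPM in ETH and 23.0 and 27.1 TPM in TAM with STAT3i. Its log2 ran from 0.02 to 1.27, and an alternative called it. The ETH libraries of STAT3i and JUNBi were the most uneven (chi-square per gene between the 2 libraries 53.8 and 65.4, 10.2 in ETH Ctrli). Few calls there do not show that a response was absent.

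JUNB rose with TAM in YAPi (78.4 and 84.0 TPM in ETH, 233 and 214 in TAM, log2 1.62) and in TAZi (68.6 and 101 TPM, then 261 and 250.0, log2 1.78). In STAT3i it was 27.6 and 59.2 TPM in ETH and 50.4 and 54.5 TPM in TAM (log2 0.31, SE 0.29, DESeq2 adjusted p 1), and those groups overlapped. FOS in STAT3i stood at 18.8 and 15.8 TPM in ETH and 17.1 and 12.3 TPM in TAM (log2 -0.27, SE 0.34, adjusted p 1). FOS rose in the other 3 knockdowns, by log2 2.25 in TAZi, 1.94 in JUNBi and 1.60 in YAPi. The FOS call ended without the first TAM library in YAPi (adjusted p 0.028) and without the second in JUNBi (0.11).

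BATF3 rose by log2 4.70 in TAZi (2.09 and 1.65 TPM to 41.3 and 37.8 TPM) and by 3.38 in JUNBi (1.21 and 1.83 TPM to 11.3 and 19.6 TPM). Its ETH counts were only 6 and 5 in TAZi and 6 and 9 in JUNBi. The JUNBi call ended without either TAM library (adjusted p 0.043 and 0.68). In YAPi BATF3 was at 1.95 and 2.02 TPM in ETH and 10.2 and 6.13 TPM in TAM (log2 2.01, SE 0.75, DESeq2 adjusted p 0.1, edgeR 0.00011). In STAT3i it was at 2.7 and 3.91 TPM in ETH and 4.15 and 6.04 TPM in TAM (log2 0.62, adjusted p 1), with no overlap between the groups. ATF3 rose in TAZi (1.97 and 2.96 TPM to 23.4 and 17.6 TPM, log2 3.39) and was not called in YAPi (log2 1.40, adjusted p 0.065, edgeR 3e-06), JUNBi (1.06, adjusted p 0.63) or STAT3i (0.69, adjusted p 1).

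Smaller or less stable calls completed the response. FOSL2 rose by log2 0.58 in YAPi and 0.59 in TAZi, calls that ended in one fit over all ER-Src groups (DESeq2 adjusted p 0.017 and 0.011) and with some libraries left out (0.093 to 0.18 in YAPi, 0.03 to 0.14 in TAZi). JUND fell by 1.13 on the log2 scale with TAM in TAZi (40.5 and 76.8 TPM to 26.9 and 21.7 TPM), where the second ETH library was far above the rest and the change without it was -0.67 (adjusted p 0.33). That call also ended without either TAM library (0.017 and 0.088) and in one fit over all ER-Src groups (0.16). JUNB rose by log2 1.60 in JUNBi, but not by edgeR (adjusted p 0.12) nor without either TAM library (0.099 and 0.87).

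**Figure D2:**
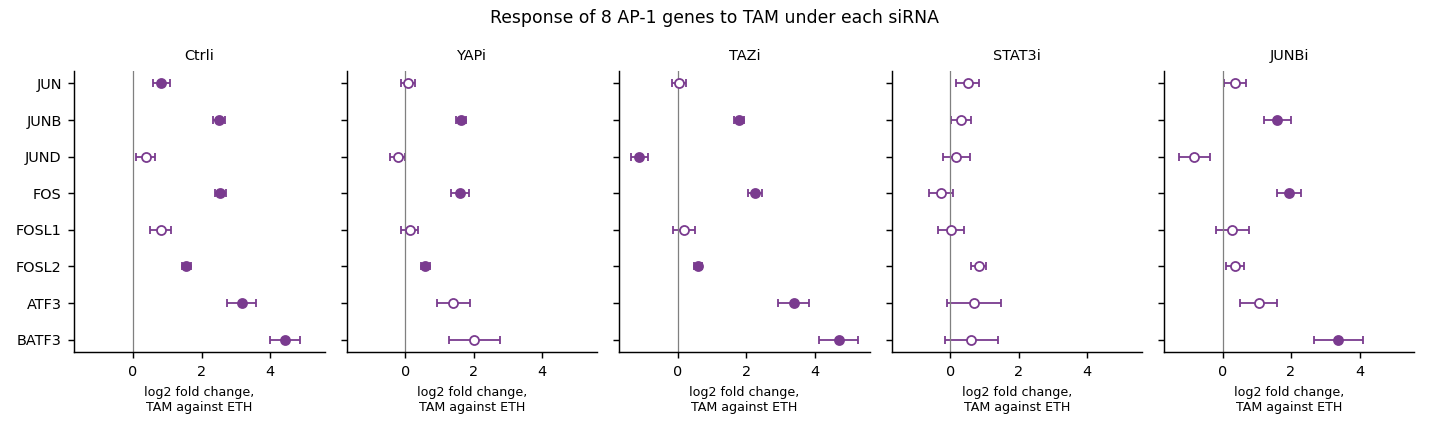
Log2 fold change of TAM against ETH for 8 AP-1 genes (without FOSB), in 1 panel per siRNA. Bars around points are the SE, and filled points have a DESeq2 adjusted p under 0.01. The STAT3i panel has no filled point (FOSL2 at 0.83 is called by edgeR and with the replicate block), while BATF3 stands at 4.44 in Ctrli and 4.70 in TAZi.

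Whether the response differed from that of Ctrli cells was tested by the interaction of siRNA and treatment. For STAT3i, 3 of 8 members were called, all with a smaller response (1.34% of all genes tested): FOS (-2.82 on the log2 scale, SE 0.31, DESeq2 adjusted p 1e-16), JUNB (-2.19, SE 0.35, 1e-07) and BATF3 (-3.80, SE 0.67, 3.7e-06). ATF3 was at -2.47 (SE 0.69, adjusted p 0.023, edgeR 0.00031). The JUNB call ended without either TAM STAT3i library (0.093 and 0.087).

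For YAPi 1 of 8 members was called, FOSL2 (-0.96, SE 0.18, DESeq2 adjusted p 3.9e-05), beside 0.498% of all genes. edgeR called 6 of them. For TAZi 1 of 3 with an adjusted p was called, again FOSL2 (-0.96, SE 0.18, 3e-05), beside 1.6% of all genes, and edgeR called 4 members. Both FOSL2 values lost the call with effective length offsets (-0.66, adjusted p 0.22, and -0.54, adjusted p 0.2), with one fit over all ER-Src groups (0.031 and 0.07) and with 1 control library left out (0.01 in each). For JUNBi 0 of 8 were called (0.288% of all), with 2 at an unadjusted p under 0.05 and 3 called by edgeR. FOSL2 was closest there at -1.17 (SE 0.29, DESeq2 adjusted p 0.015). The interactions share the same Ctrli libraries, so the FOSL2 values are not independent of one another.

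Each knockdown was also compared with control within TAM. This contrast holds any effect on the level without TAM as well as any effect on the rise. STAT3i lowered 5 of 8 members and raised none (8.22% of all genes tested were called, and the members' median was -1.84 on the log2 scale against 0.03 over all). FOS went from 139 and 147 TPM to 17.1 and 12.3 TPM, an 11.2-fold fall (log2 -3.48, SE 0.19, DESeq2 adjusted p 1.9e-68). JUNB went from 230 and 311 TPM to 50.4 and 54.5 TPM (5.3-fold, log2 -2.41, SE 0.16, adjusted p 2.5e-47). In ETH Ctrli, beside these, FOS was at 27.6 and 33.3 TPM and JUNB at 43.0 and 54.4 TPM.

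BATF3 fell 10.7-fold with STAT3i, to 4.15 and 6.04 TPM (log2 -3.43, SE 0.35, DESeq2 adjusted p 2.1e-20). ATF3 fell 7.36-fold, to 2.83 and 2.82 TPM (log2 -2.88, SE 0.39, adjusted p 2e-11), and FOSL2 2.42-fold, to 27.8 and 35.9 TPM (log2 -1.27, SE 0.15, adjusted p 1.6e-14). In these 5 genes the 2 groups did not overlap, and each call was kept under all 10 alternatives. JUN (23.0 and 27.1 TPM, log2 0.25), JUND (21.1 and 40.9 TPM, -0.23) and FOSL1 (9.21 and 14.9 TPM, -0.67) did not pass. The effective length was 49.0 bases shorter than the gene in the STAT3i and JUNBi libraries. It was 49.5 bases shorter in the other ER-Src libraries, Ctrli included. The 5 calls with STAT3i and the 4 with JUNBi were kept with effective length offsets. Such offsets adjust for length only. Any other library difference that goes with it cannot be told apart from these 2 knockdowns.

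YAPi lowered 3 of 8 members (10.7% of all genes called). BATF3 fell 8.13-fold to 10.2 and 6.13 TPM (log2 -3.02, SE 0.37, DESeq2 adjusted p 6.5e-14) and FOS 3.88-fold to 50.2 and 29.6 TPM (log2 -1.95, SE 0.21, adjusted p 4.7e-19). ATF3 was at 9.77 and 8.40 TPM (log2 -1.16, SE 0.32, adjusted p 0.0037), a call lost under effective length offsets (0.024) and without any 1 of the 4 libraries (0.14 to 0.37). JUNB differed from the STAT3i case: 233 and 214 TPM gave a log2 fold change of -0.39 (SE 0.16, adjusted p 0.089, edgeR 0.0066). JUN had log2 0.41 (adjusted p 0.25, edgeR 0.0022).

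TAZi lowered 1 of 8 members, FOS (3.42% of all genes called). FOS was at 92.3 and 78.1 TPM, below both controls (log2 -0.74, SE 0.14, DESeq2 adjusted p 2.3e-05). The call ended in one fit over all ER-Src groups (0.057), without the second TAZi library (0.2) and without either control (0.011 and 0.02). BATF3 at 41.3 and 37.8 TPM had a log2 fold change of -0.57 (adjusted p 0.22, edgeR 0.0069).

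JUNBi lowered 4 of 8 members (6.9% of all genes called), JUNB itself included. FOS was at 40.5 and 54.8 TPM (log2 -1.60, SE 0.17, DESeq2 adjusted p 7.5e-18), BATF3 at 11.3 and 19.6 TPM (-1.92, SE 0.34, 8e-07) and ATF3 at 8.65 and 6.44 TPM (-1.27, SE 0.34, 0.0037). All were below both controls. edgeR called none of the 4, with adjusted p of 0.016 for FOS, 0.02 for JUNB, 0.034 for BATF3 and 0.041 for ATF3. ATF3 also ended without any 1 library (0.13 to 0.34), and BATF3 without the first JUNBi or first Ctrli library (0.014 and 0.033). FOSL2 was unlike the STAT3i case, with 68.4 and 70.9 TPM and log2 -0.04 (SE 0.13, 0.89).

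The 4 TAM comparisons share the same 2 control libraries, so their values are set side by side only. FOS stood at -3.48 in STAT3i, -1.95 in YAPi, -1.60 in JUNBi and -0.74 in TAZi on the log2 scale. BATF3 stood at -3.43, -3.02, -1.92 and -0.57 in the same order, and JUNB at -2.41, -0.39, -2.03 and -0.13. FOSL2 fell in STAT3i and stood between -0.07 and -0.00 in the other 3.

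**Figure D3:**
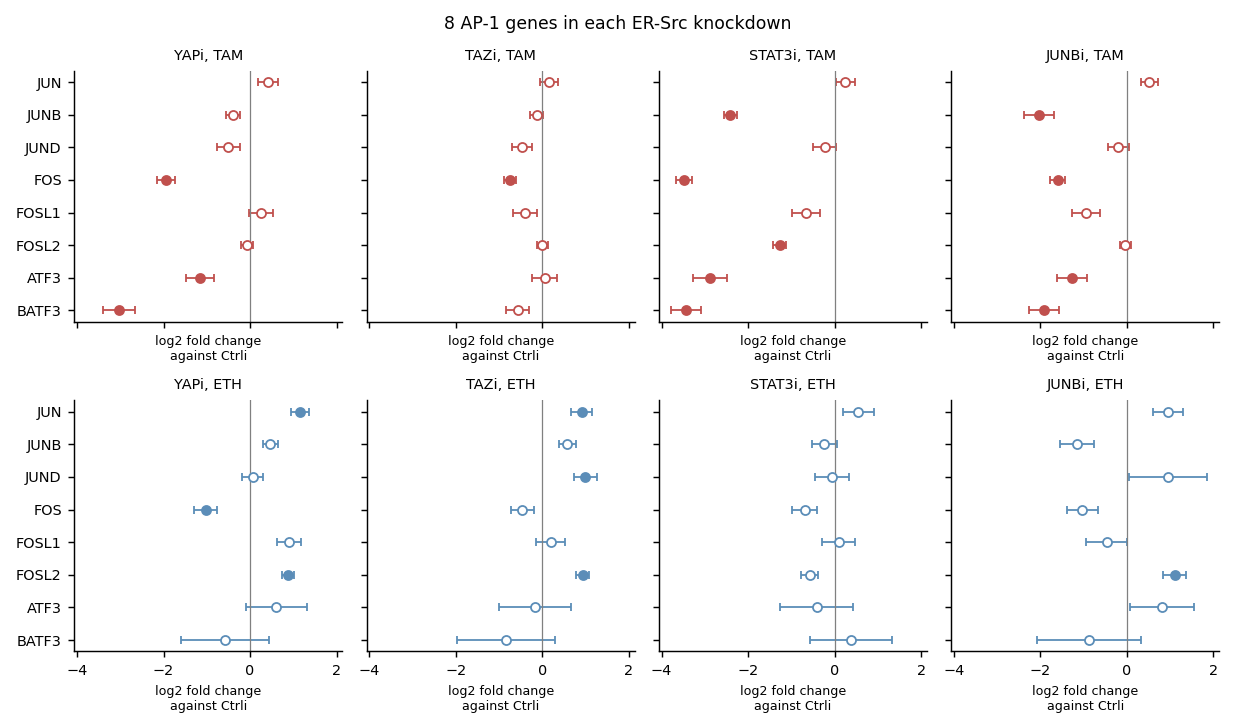
Log2 fold change of each knockdown against Ctrli for 8 AP-1 genes (without FOSB), with TAM in the upper row and ETH in the lower row. Bars around points are the SE, and filled points have a DESeq2 adjusted p under 0.01. In TAM every filled point is below 0, while in ETH the filled points are above 0 except FOS in YAPi (-1.03).

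In ETH, where v-Src was not switched on, most calls were higher. They fell on JUN, JUND and FOSL2, and of these only FOSL2 was called in TAM, lower with STAT3i. FOS kept its direction. It was below both Ctrli libraries in every ETH knockdown, though called only in YAPi. With TAZi it was at 26.6 and 21.2 TPM. With JUNBi it was at 11.6 and 15.1 TPM (log2 -1.32 to -0.78 over the alternatives). YAPi gave 2 members higher and 1 lower of 8 (11.6% of all genes called), TAZi 3 higher of 7 (5.24%), JUNBi 1 higher of 8 (2.8%) and STAT3i 0 of 9 (0.189%). With STAT3i 2 members had an unadjusted p under 0.05, FOSL2 and FOS, and edgeR called 0. The 2 ETH STAT3i libraries differed more from each other (chi-square per gene 53.8) than those of ETH Ctrli (10.2), so the lack of calls does not show a lack of change. FOSL2 was at 16.9 and 19.2 TPM with STAT3i against 32.0 and 37.4 TPM in Ctrli, lower in both libraries (log2 -0.58, SE 0.20, DESeq2 unadjusted p 0.0036, adjusted p 0.61). FOS was at 18.8 and 15.8 TPM with STAT3i against 27.6 and 33.3 TPM in Ctrli, lower in both libraries (log2 -0.69, SE 0.29, DESeq2 adjusted p 1).

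JUN was higher in YAPi (26.6 and 36.1 TPM against 10.5 and 13.0 in Ctrli, log2 1.15, SE 0.21, DESeq2 adjusted p 2.5e-06) and in TAZi (20.5 and 31.1 TPM, log2 0.91, SE 0.24, adjusted p 0.0032). Neither group overlapped Ctrli. The YAPi call ended without the second YAPi library (0.02), the first Ctrli library (0.025) or in one fit over all groups (0.011), and the TAZi call without the second TAZi library or either Ctrli library (0.062 to 0.69). JUND was higher in TAZi (40.5 and 76.8 TPM against 21.9 and 30.1, log2 0.99, SE 0.27, adjusted p 0.0053). Without the second TAZi library it was 0.54 (adjusted p 0.88), without the first Ctrli library 0.72 (0.69) and without the second 1.30 (0.017).

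FOS was lower in YAPi (15.5 and 13.1 TPM, log2 -1.03, SE 0.26, DESeq2 adjusted p 0.00087), a call that ended without any 1 of the 4 libraries (0.048 to 0.21). FOSL2 was called higher in YAPi (45.2 and 52.3 TPM against 32.0 and 37.4, log2 0.87), TAZi (43.5 and 52.5 TPM, log2 0.93) and JUNBi (44.6 and 64.4 TPM, log2 1.10). With offsets for the effective length these became 0.41, 0.39 and 0.57, with adjusted p of 0.064, 0.11 and 0.36. The mean transcript length that RSEM gave FOSL2 was 3277 and 3894 bases in the 2 ETH Ctrli libraries and 5460 to 5800 bases in these 3 knockdowns. All ETH comparisons, those of JUN included, share these 2 Ctrli libraries, so their values are set side by side only. The JUNBi call also ended without either Ctrli library (0.63 and 0.58). In JUNBi, JUND differed between its 2 libraries (26.1 and 108 TPM).

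In the MDA-MB-231 controls the family had a different make-up from that in ER-Src. FOSL1, a FOS-related gene often high in mesenchymal tumor cells, took 72.3% of the summed AP-1 TPM in MDAMB-RNA2 Ctrli and 47.4% in MDAMB-RNA1 Ctrli, against 3.21% in TAM Ctrli of ER-Src. Its level was 442 and 594 TPM in MDAMB-RNA2 Ctrli, 329 and 342 TPM in MDAMB-RNA1 Ctrli and 6.11 to 26.4 TPM over all ER-Src libraries. In the MDAMB-RNA1 knockdowns FOSL1 took only 7.5% to 19.7% of the sum. There JUN took 21.1% to 34.3% and FOSL2 19.1% to 32.9%, and knockdown and library type cannot be told apart. FOS was nearly absent in MDAMB-RNA2 Ctrli (0.138 and 0.0 TPM) and at 3.28 and 3.55 TPM in MDAMB-RNA1 Ctrli. The lines differ in library type and origin, so these levels were not tested.

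**Figure D4:**
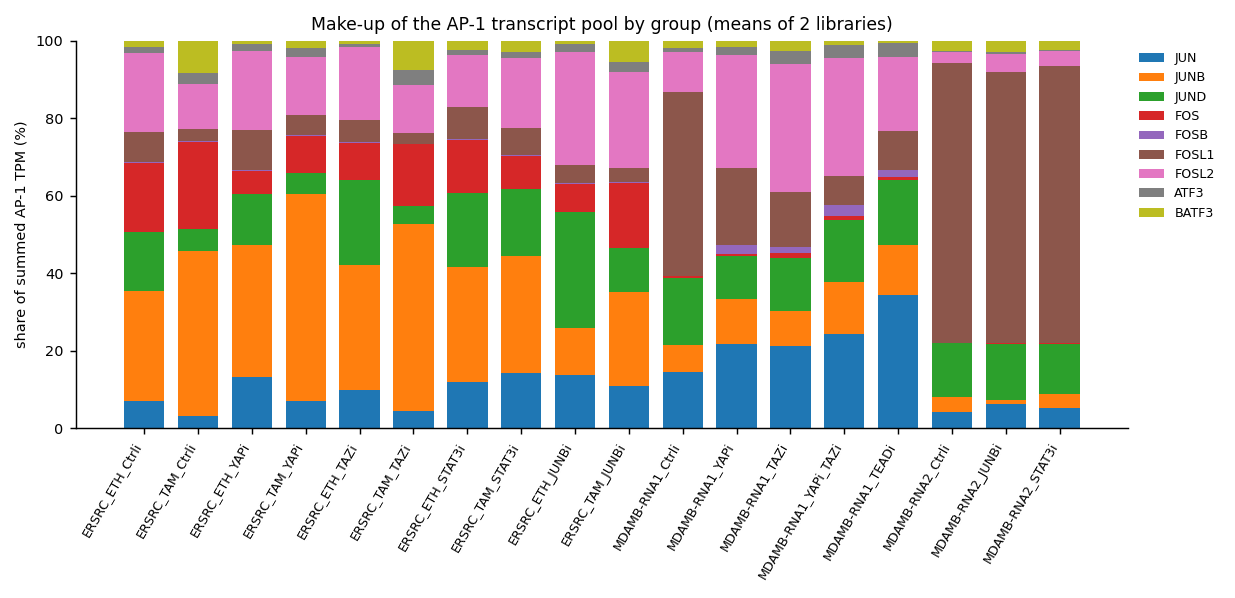
Share of each AP-1 gene in the summed rescaled TPM of the 9 genes, in percent, for the 18 groups (stacked bars of group means). FOSL1 takes 72.3% in MDAMB-RNA2 Ctrli, 7.5% to 19.7% in the MDAMB-RNA1 knockdowns and 3.21% in ER-Src TAM Ctrli, where JUNB takes 42.5%.

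In MDAMB-RNA2, JUNBi lowered 1 of 6 members with an adjusted p (3.41% of all genes called), JUNB itself, from 33.5 and 19.8 TPM to 7.13 and 8.48 TPM (log2 -2.04, SE 0.31, DESeq2 adjusted p 2.3e-08). STAT3i gave 0 of 4 by DESeq2 (0.497% of all), with 1 member at an unadjusted p under 0.05 and 0 called by edgeR. JUNB was 20.7 and 25.2 TPM there, inside the range of its controls. FOSL1 at 500.1 and 469 TPM in JUNBi and 449.7 and 445 TPM in STAT3i also overlapped its controls in both comparisons. FOS had 2 and 0 counts in Ctrli and 34 and 6 in JUNBi (log2 3.20, SE 1.90, unadjusted p 0.091), too few to compare.

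**Figure D5:**
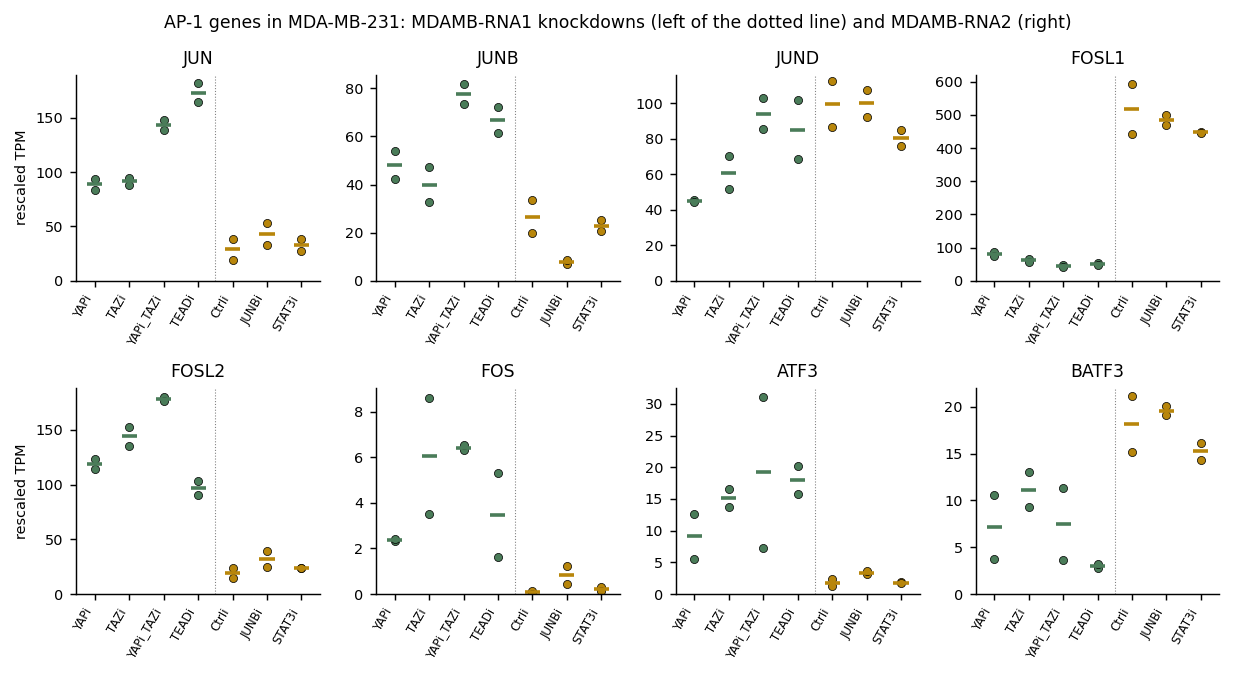
Level of 8 AP-1 genes in the MDA-MB-231 knockdown libraries of MDAMB-RNA1 (left of the dotted line) and in all MDAMB-RNA2 libraries (right), in rescaled TPM on a linear axis from 0. Dots are libraries and bars are group means. JUN is highest in MDAMB-RNA1 TEADi (182 and 165 TPM), and FOSL1 is higher in every MDAMB-RNA2 library than in any MDAMB-RNA1 knockdown.

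Among the MDAMB-RNA1 knockdowns, JUN was higher in the double and TEAD knockdowns than in either single one. Replicates 1 and 2 differed in length and RNA make-up. The effective length was 48.0 bases shorter than the gene in the first and 74.6 bases shorter in the second. The protein-coding share of deposited TPM was 20.0% to 23.2% in the first and 36.9% to 37.9% in the second. The log2 ratio of TPM within each replicate number is therefore given as well. JUN was at 93.5 and 83.9 TPM in YAPi, 94.9 and 88.6 in TAZi, 148 and 139 in YAPi_TAZi and 182 and 165 in TEADi. TEADi exceeded YAPi by log2 0.97 (SE 0.14, DESeq2 adjusted p 1.8e-09; 0.96 and 0.97 within replicates) and TAZi by 0.99 (SE 0.14, 6.7e-10; 0.94 and 0.90). DESeq2 called only JUN in these comparisons when the replicate number was not in the fit (1 of 7 in each; 7.12% and 7.96% of all genes). edgeR, also without it, called a second member in each: JUND against YAPi (log2 0.85, adjusted p 0.0025) and JUNB against TAZi (0.81, 0.0044).

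YAPi_TAZi differed from YAPi in 3 of 7 members (7.46% of all genes called) and from TAZi in 2 of 7 (6.8%). JUN was higher against both, by log2 0.63 (adjusted p 0.00042; 0.66 and 0.73 within replicates) and 0.65 (0.00023; 0.64 and 0.65), by DESeq2. FOSL1 was lower than in YAPi (46.0 and 42.0 TPM against 85.6 and 76.0, log2 -1.10, SE 0.28, adjusted p 0.0019; -0.90 and -0.85 within replicates). JUNB was higher than in TAZi (82.0 and 73.6 TPM against 47.1 and 32.9, log2 0.98, SE 0.27, adjusted p 0.0045; 0.80 and 1.16). FOSL2 was at 180.0 and 176 TPM in YAPi_TAZi against 124 and 115 in YAPi (log2 0.53, adjusted p 0.0098; 0.54 and 0.62). With effective length offsets all of these were above 0.01 (0.023 and 0.021 for JUN, 0.11 for FOSL1, 0.086 for JUNB, 0.038 for FOSL2). Leaving out 1 library of the 8 ended the JUN call in 6 cases against YAPi (0.011 to 0.037) and in 4 against TAZi (0.014 to 0.14), the FOSL1 and FOSL2 calls in 7 each (0.033 to 0.078 and 0.011 to 0.27) and the JUNB call in all 8 (0.011 to 0.61). The JUN calls of TEADi were kept in every such case.

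TEADi differed from YAPi_TAZi in 1 of 7 members (4.97% of all genes called), FOSL2 (104 and 90.1 TPM against 180.0 and 176, log2 -0.72, SE 0.16, DESeq2 adjusted p 0.00024; -0.80 and -0.97 within replicates), a call lost without the first YAPi_TAZi (0.039) or second TEADi library (0.076). TAZi and YAPi differed in 0 of 7 members by DESeq2 and edgeR without the replicate number in the fit, with 0 at an unadjusted p under 0.05 (2.4% of all genes called). edgeR with the replicate block called FOSL2 higher in TAZi (log2 0.27, adjusted p 0.0042; 0.31 and 0.23 within replicates). With the replicate number in the fit (a replicate block) the DESeq2 calls over these 6 pairs rose from 8 to 12, adding JUND in YAPi_TAZi (adjusted p 0.0024) and TEADi (0.0006) against YAPi, and FOSL2 (9.1e-06) and JUNB (0.0021) in TEADi against TAZi. Levels of FOSL1 were 42.0 to 85.6 TPM in these knockdowns and 329 and 342 TPM in the MDAMB-RNA1 controls, where the knockdown and the library type cannot be told apart.

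Other genes of the pathway were read from 4 lists fixed with earlier results of these data known. In TAM against ETH Ctrli, 7 of 11 tested AP-1 target genes were higher and 0 lower (median log2 1.03), and 3 of 10 other immediate-early genes were higher and 0 lower, where 6.21% of all genes were called. Called as higher were also 1 of 8 other bZIP partners and 1 of 17 genes of the MAP kinases and their TCF and SRF effectors, which for the latter is near the share over all genes. TNC, an extracellular matrix gene, rose by log2 6.78 (SE 0.24, DESeq2 adjusted p 8.5e-171) and PLAUR, the urokinase receptor, by 2.34 (SE 0.18, 1.3e-36). ZFP36, which encodes an RNA-decay factor, rose by 2.34 and IER2 by 0.85. ELK3, a TCF, rose by 0.80.

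In TAM knockdowns these lists split. With STAT3i 5 of 10 immediate-early genes were lower and 2 higher, and 4 of 10 AP-1 targets were lower and 1 higher (8.22% of all genes called). ZFP36 fell by 2.24, IER2 by 1.16, each on the log2 scale. TNC changed by -4.39 and TIMP1, a protease inhibitor, by -1.62. MAFK fell by 1.10 and ELK1 by 0.94 in the same comparison, each 1 of its list. TAM against ETH within STAT3i cells still gave 5 of 11 AP-1 targets higher and 0 lower (median log2 0.94, 0.793% of all genes called). Within Ctrli cells it gave 7 of 11 higher (median log2 1.03). Of the other immediate-early genes, 0 of 10 were called with TAM in STAT3i cells. With JUNBi 4 of 9 immediate-early genes were lower and 1 higher (BTG2, 1.10), and 4 of 11 targets were lower and 1 higher, with CXCL8 at -1.56 and TNC at -1.52 (6.9% of all genes called).

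With YAPi in TAM 4 of 12 targets were higher and 4 lower (10.7% of all genes called), and HMOX1 (1.86) and CCND1 (1.29) rose while CCN1 fell by 1.29 among 2 of 10 immediate-early genes. With TAZi in TAM 2 of 11 targets were lower and 1 higher, with CXCL8 at 0.59, and 3 of 10 immediate-early genes were lower (3.42% of all genes called). In ETH, YAPi raised 6 of 11 targets and lowered 0 (median 1.28, 11.6% of all genes called), with CXCL8 at 1.68 and PLAU at 1.41. Among the MAP kinase, TCF and SRF genes no more than 2 of 17 were called in any ER-Src comparison, with MAP2K1 at -0.52 in TAM TAZi and -0.64 in ETH TAZi. In MDAMB-RNA2 with JUNBi, 2 of 11 targets were higher and 1 lower, with MMP1, a collagenase, at -1.26, and CCN1 rose by 1.07 (3.41% of all genes called).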

How the data were processed

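Per the methods of the study and the labels, libraries were made with the TruSeq Ribo Profile kit. The libraries did not look alike, however. Listed RNAs that lack a poly(A) tail held 9.3% to 11.6% of each ER-Src library. They held 8.71% to 11.8% of each MDAMB-RNA1 knockdown library. Their share was at most 0.0112% for MDAMB-RNA2 and at most 0.00407% for the MDAMB-RNA1 controls. Whether the same kit served all libraries was not tested. The authors aligned reads with STAR and quantified genes with RSEM (hg38). Per the deposited tables, the authors' values are RSEM expected counts, which share a read that fits several genes and are not normalized. The authors' TPM divide these estimates by effective length and scale each library to a fixed total.

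Expected counts were rounded and tested with DESeq2 (version 1.42.0, R 4.3.3), by the Wald test with default size factors and independent filtering, in a separate run for each knockdown against the controls of its treatment or set, as the study did. The same test was used for TAM against ETH within each siRNA, for the interaction of siRNA and treatment, and for the pairs of the 8 MDAMB-RNA1 knockdown libraries in one fit. A gene was called at an adjusted p under 0.01 over all genes. Rows that name no Ensembl gene stayed out: 649 numeric identifiers, 96 spike-ins and 1 other. Symbols matched 93.1% of the Ensembl identifiers. Rescaled TPM were chosen after the data were seen.

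The members and the gene lists were chosen with earlier results of these data known. The text names all 9 members, the targeted genes and, from each other list and comparison with a control, the 2 called genes that moved most at a mean normalized count of at least 100. Some genes that this rule names are not reported here. RN7SK of the non-poly(A) list was not matched. Replicates were not near duplicates (chi-square per gene 2.27 to 65.4, highest in ETH JUNBi at 65.4 and ETH STAT3i at 53.8). Same-numbered ER-Src libraries had only 2 numbers and were not treated as pairs in the main test. The same-numbered MDAMB-RNA1 knockdowns were correlated (r of 0.776 to 0.841). The scripts were tested on simulated data. Alternatives were the quasi-likelihood test of edgeR (version 4.0.16), size factors by TMM, a minimum mean count of 10, offsets from the effective length, one fit over all groups, the replicate block, separate runs per MDAMB-RNA1 pair and leaving out each library. edgeR with the replicate block was added for MDAMB-RNA1 after the data were seen.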

Additional observations from a re-analysis of the deposited data

Results flagged for a closer look

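Some responses to TAM differed between a knockdown and Ctrli cells by the DESeq2 interaction test. With STAT3i the response of FOS was smaller by -2.82 on the log2 scale (DESeq2 adjusted p 1e-16), that of JUNB by -2.19 (adjusted p 1e-07) and that of BATF3 by -3.80 (adjusted p 3.7e-06). The response of FOSL2 was smaller by -0.96 with YAPi (DESeq2 adjusted p 3.9e-05) and by -0.96 with TAZi (3e-05), tests that share the same Ctrli libraries. Both FOSL2 values were above 0.01 with effective length offsets. The 3 values with STAT3i were still called with those offsets.

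The libraries of FOS and ATF3 fell on opposite sides of their controls in the 2 cell lines under JUNBi, but neither gene was called in MDAMB-RNA2. Both JUNBi libraries were below both controls in ER-Src under TAM, and both were above both controls in MDAMB-RNA2. In MDAMB-RNA2 the log2 ratio of mean TPM was 3.61 for FOS, which rests on 2 and 0 counts in the controls against 34 and 6 counts and is too few to compare (DESeq2 log2 3.20, 95% interval -0.51 to 6.92). It was 0.91 for ATF3 (1.24 and 2.37 TPM in the controls, 3.20 and 3.57 TPM in JUNBi), where the DESeq2 value was 0.58 (SE 0.68, unadjusted p 0.39) and ran from 0.11 to 1.29 over the alternatives. The difference between the cell lines was not tested.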

How the results depend on the processing

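Each member result with a mean count of at least 10 was recomputed under every alternative, 190 results and 2222 values. Of 52 called results 22 were kept under all alternatives run and 30 were lost under at least 1, none reversed, and 2 had no adjusted p under an alternative. Counts of calls over the family moved as follows. In ETH the 7 calls became 13 with edgeR and 2 to 8 with a library left out. The 5 interaction calls became 17 with edgeR and 4 to 11 with a library left out. The 18 calls of TAM against ETH became 11 to 18, and the 13 calls in TAM 9 to 10, with a library left out. In MDAMB-RNA2 the 1 call became 0 to 2, the 0 because JUNB had no adjusted p. Among the MDAMB-RNA1 pairs the 8 calls became 5 with TMM, 3 when offset by effective length, 5 with separate runs per pair, 2 to 6 with a library left out, 12 with the replicate block and 19 with edgeR and the replicate block. With the replicate block the calls were 11 in TAM, 6 in ETH, 18 for TAM against ETH and 6 for the interaction. In ER-Src the deviations of same-numbered libraries correlated at -0.054 to 0.595, highest for TAM against ETH in STAT3i (0.595), JUNBi (0.564) and YAPi (0.47). The block ended the calls of ATF3 in TAM YAPi (adjusted p 0.082) and JUNBi (0.043), FOS in ETH YAPi (0.025), JUN in ETH TAZi (0.019) and JUN for TAM in Ctrli (0.041), and added JUNB in ETH JUNBi (0.0021), FOSL2 for TAM in STAT3i (0.0008) and the FOSL2 interaction of JUNBi (0.0017). No paired analysis was possible in MDAMB-RNA2 because its controls and knockdowns share no replicate number. FOSB, at up to 15 counts in ER-Src and 17 in MDAMB-RNA2, was too low at this depth for comparisons in these sets. In the MDAMB-RNA1 knockdowns it held 8 to 36 counts and was called in no pair by the main test. For YAPi_TAZi against TAZi its log2 ran from 0.95 to 1.99, and an alternative called it. Within replicates that log2 ratio of TPM was 2.92 and 0.17.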

Other observations

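Within ER-Src the members followed one another unevenly. Over the 10 group means of log2 normalized counts, Pearson's r was 0.83 for JUNB with FOS, 0.76 for JUNB with FOSL1, 0.69 for JUN with FOSL2 and -0.26 for JUNB with JUND, as a description over groups that share libraries of one experiment. The genes most like a member over the same 10 means were SRPX (r = 0.998), HIVEP2 (0.984) and SYNJ2 (0.98) for JUNB, and FAM20C (0.977), NOD1 (0.977) and STMN3 (0.972) for FOS. For JUN they were DDIT3 (0.929), ENSG00000258232 (0.908) and IRF2BP2 (0.907), and for JUND they were ARHGAP23 (0.942), ALKBH7 (0.909) and CROCC (0.901). For FOSL1 they were ARSB (0.964), CD68 (0.949) and SPRY4 (0.945), and for FOSL2 they were BCL2L11 (0.959), EFNA5 (0.958) and NUCB1 (0.957).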
